A study of Mus musculus with 9 samples.

Results

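The complement and coagulation cascades are chains of plasma proteins, and their liver transcripts are described here for 38 genes: 22 of coagulation and fibrinolysis and 16 of complement. The genes were taken by symbol from a list of factors made by hepatocytes, the main cell type of the liver, and all 38 were found among the 27945 genes of the count table. Liver RNA of mice was sequenced after 16 days in 3 groups of 3 libraries each. The combined group was labelled glycyrrhizic acid+gefitinib, the gefitinib group was labelled gefitinib, and the control group was labelled Sanitary saline. Gefitinib is a cancer drug that blocks the receptor kinase EGFR, while the saponin glycyrrhizic acid comes from liquorice root. The labels name no dose, strain, sex or age, and no group with glycyrrhizic acid alone was analysed here. Whether each library stands for its own mouse is not stated in the labels, so the p-values below measure the spread between libraries, which may be technical.

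Most of these proteins are made by hepatocytes and released into plasma as inactive precursors. In coagulation, contact factors or tissue factor start a chain of serine proteases that ends with thrombin cutting fibrinogen into fibrin, and plasmin later dissolves the fibrin. In complement, lectins that bind sugars on microbes, antibody complexes or spontaneous activation of C3 start another chain, which ends with a pore built from C5 to C9. Both chains are held back by dedicated inhibitors, many of which are liver products too.

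The libraries held 56440871 to 60665156 counts each. Read counts scaled to library size (CPM) below are scaled with edgeR's TMM factors, which were 1.05 to 1.14 in the combined group, 0.948 to 0.998 in the gefitinib group and 0.905 to 0.978 in the saline group. The liver label was checked with 10 hepatocyte markers, whose summed level was 70340 to 88210 CPM in combined, 92040 to 95500 CPM in gefitinib and 94010 to 105600 CPM in saline libraries. The summed level of 16 sinusoidal endothelial markers was 106 to 166 CPM in combined, 210 to 223 CPM in gefitinib and 479 to 567 CPM in saline libraries, and none of the 16 was at 0 in any library. The summed level of 15 Kupffer cell and macrophage markers was 1053 to 1275 CPM in combined, 394 to 535 CPM in gefitinib and 278 to 439 CPM in saline libraries, and again none was at 0. In bulk tissue, fewer cells of a type and less RNA per cell cannot be told apart. Of 12 skeletal muscle genes, the summed level was 152 to 190 CPM in combined libraries, 220 CPM in gefitinib 1, 1.10 CPM in gefitinib 2, 0.997 CPM in gefitinib 3 and 0.697 to 1.38 CPM in saline libraries. Between 8 and 9 of these 12 genes were at 0 in each saline library, while 0 were at 0 in gefitinib 1 and in the combined libraries. The part of these markers in the results below was not tested. Counts without gefitinib 1 are given beside each comparison. The combined libraries keep their muscle transcripts in those fits, so the counts cannot show the part of muscle in the combined group.

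All 38 members passed the filter on low counts, and the lowest value of any member in any library was 37.6 CPM, for Pros1 in gefitinib 1. Per length, the saline group placed the fibrinogen chains, Vtn and C3 at the top of the list. In saline libraries the mean was 1598 FPKM (fragments scaled to transcript length and sequencing depth) for Fgg, 1242 FPKM for Vtn, 1187 FPKM for Fga, 1074 FPKM for C3 and 970.5 FPKM for Fgb. These 5 genes held 52.7% of the members' summed FPKM in saline libraries. At the other end were Masp1 with 12.4 ± 1.24 FPKM and Pros1 with 8.69 ± 0.385 FPKM in saline libraries (SD, n = 3). Protein S, the product of Pros1, is also made by endothelial cells. Together the 38 members made up 2.91 ± 0.273% of all FPKM in combined, 2.88 ± 0.148% in gefitinib and 2.58 ± 0.158% in saline libraries (SD, n = 3 each). Libraries spread more for complement than for coagulation genes in the saline group, with a median coefficient of variation of 13.5% against 6.53%. In the combined group these medians were 10.4% for complement and 8.3% for coagulation genes.

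**Figure D1:**
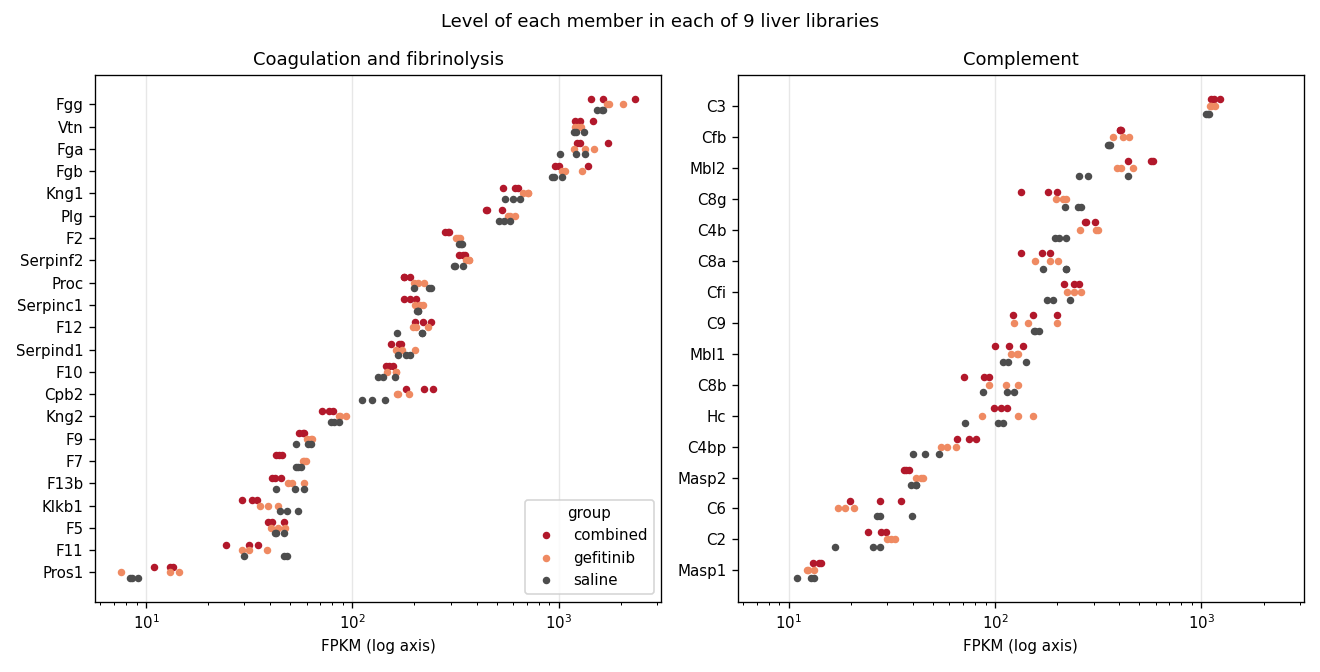
Level of each member in FPKM (log axis) in each of the 9 libraries, with coagulation and fibrinolysis genes on the left and complement genes on the right; each point is 1 library, coloured by group. In saline libraries the members reach from 8.69 FPKM for Pros1 to 1598 FPKM for Fgg.

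The 9 libraries were compared in 3 ways: combined against gefitinib, combined against saline, and gefitinib against saline. Changes are log2 fold changes with a standard error (SE), tested gene by gene with edgeR's quasi-likelihood test, and p was adjusted by Benjamini-Hochberg over all 18113 genes tested. A member is called where its adjusted p was under 0.05. Combined libraries had 7 members called lower and 0 called higher than gefitinib libraries, beside 9.08% of all tested genes called in that comparison (4.11% lower, 4.96% higher). They had 11 members called lower and 2 called higher than saline libraries, beside 17.7% of all tested genes (8.32% lower, 9.37% higher). Gefitinib libraries had 0 members called against saline libraries, beside 1.14% of all tested genes (0.547% higher, 0.591% lower). In all, 14 members were called in at least 1 comparison, and 6 of them (Klkb1, Kng2, F7, F13b, Plg and Masp2) fell both against gefitinib and against saline, which share the combined libraries.

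**Figure D2:**
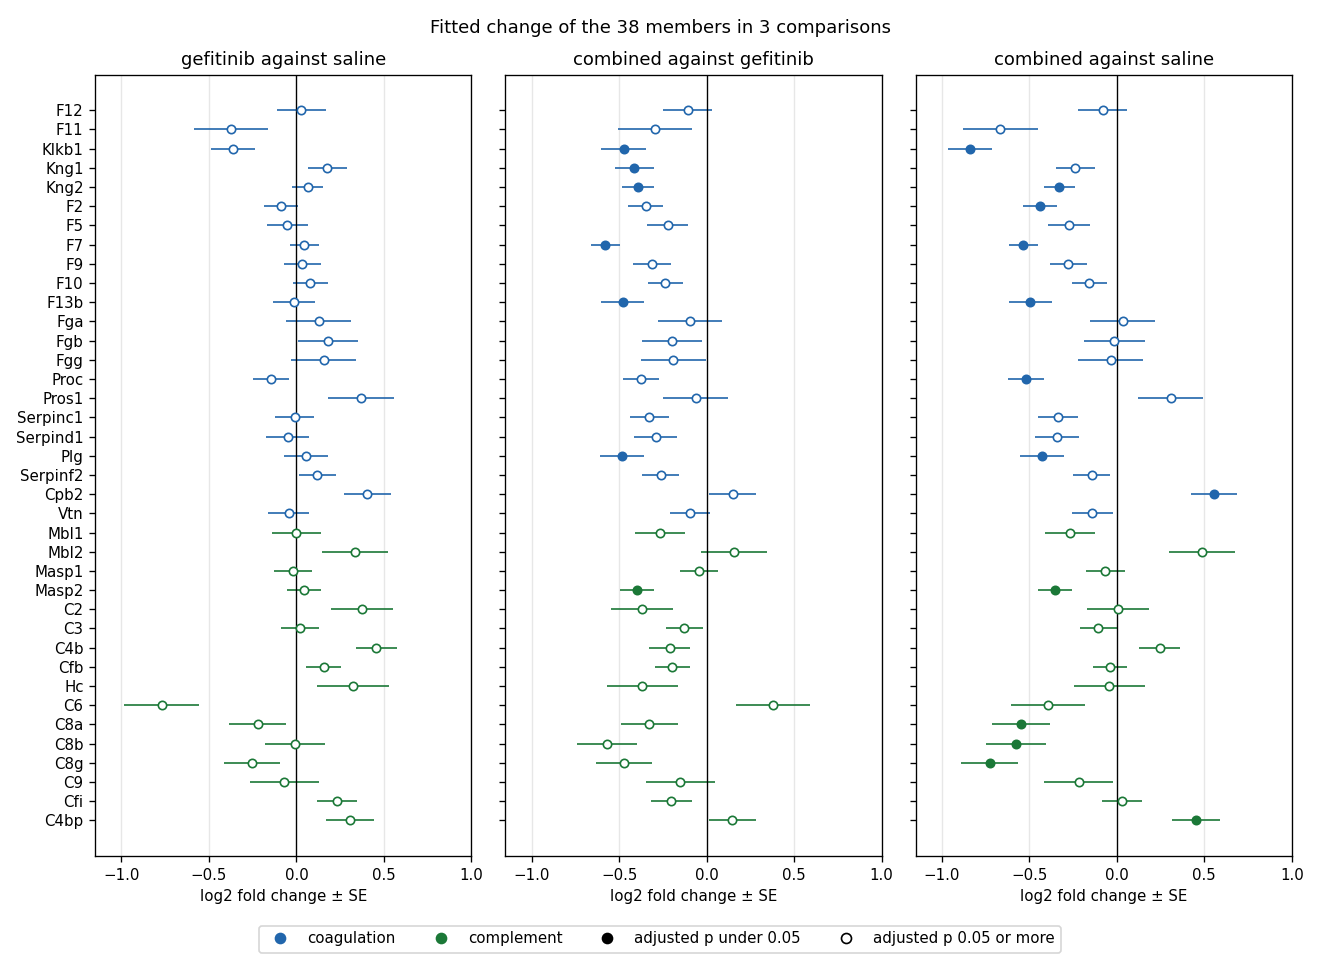
Fitted log2 fold change (x axis, with bars of ± 1 SE) of each of the 38 members in the 3 comparisons; filled points have an adjusted p under 0.05, and colours separate coagulation from complement. Filled points number 0 in gefitinib against saline, 7 in combined against gefitinib, all left of 0, and 13 in combined against saline, 11 of them left of 0.

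Promoters were read for the members, to show the sequence from which these transcripts start. RefSeq promoters of build GRCm38.p6 were found for 30 of the 38 members; Cfb, Kng1, Plg, Proc, Masp1, Cfi, C2 and C4b had none in the table. The 250 bases before the start were searched on both strands for 3 motifs of factors known to act on liver genes. The C/EBP motif TTGCNNAA was found in 8 of 30 member promoters (26.7%), against 9.55% of 27025 promoters of all genes. The STAT motif TTCNNNGAA was found in 6 (20%), against 7.18%, and the HNF4 motif CAAAGNNCA in 4 (13.3%), against 5.47%. Members with several starts were read at the start nearest to the gene's 5′ end in the count table. For all genes the first listed start was used, so the percentages differ in how starts were chosen. Of 19 coagulation and 11 complement promoters, C/EBP was found in 6 and 2, STAT in 4 and 2, and HNF4 in 4 and 0. Matches of different motifs did not overlap in the members. The 3 promoters below were chosen after the values were seen: F7 and Klkb1 because they fell against both groups and Fgb because its chain genes were not called. Each runs 5′ to 3′ on the strand of its gene with motif matches in capitals.
F7 promoter, chr8:13025784-13026033, plus strand: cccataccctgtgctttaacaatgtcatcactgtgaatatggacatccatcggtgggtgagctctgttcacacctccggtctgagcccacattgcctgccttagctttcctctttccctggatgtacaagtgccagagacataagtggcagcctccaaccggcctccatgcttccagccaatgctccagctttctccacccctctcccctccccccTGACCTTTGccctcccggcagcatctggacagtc
Klkb1 promoter, chr8:45294836-45295085, minus strand: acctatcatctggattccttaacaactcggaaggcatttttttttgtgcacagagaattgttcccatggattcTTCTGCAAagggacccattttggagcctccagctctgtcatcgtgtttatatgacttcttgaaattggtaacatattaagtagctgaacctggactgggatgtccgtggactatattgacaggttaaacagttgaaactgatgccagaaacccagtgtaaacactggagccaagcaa
Fgb promoter, chr3:83049864-83050113, minus strand: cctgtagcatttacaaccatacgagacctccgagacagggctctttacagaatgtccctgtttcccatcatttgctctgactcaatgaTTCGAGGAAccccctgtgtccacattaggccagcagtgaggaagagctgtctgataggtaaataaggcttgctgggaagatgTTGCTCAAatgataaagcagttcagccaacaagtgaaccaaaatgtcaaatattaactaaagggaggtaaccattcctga

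The F7 promoter holds an HNF4 match that begins 34 bases before the start, and the Klkb1 promoter a C/EBP match that begins 177 bases before it, both read on the other strand. The RefSeq start of Klkb1 used here lies 24 bases inside the gene as the count table gives it. The Fgb promoter holds matches of C/EBP at 80 bases and STAT at 162 bases. A match describes the letters only and is not evidence of binding.

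Of the 5 contact system genes, 3 were called lower in combined livers against gefitinib and 2 against saline. Of all tested genes, 4.11% and 8.32% were called lower. Klkb1 encodes prekallikrein, the precursor of plasma kallikrein, which cuts kininogen and activates factor XII. Klkb1 had 153, 188 and 182 CPM in combined, 249, 213 and 264 CPM in gefitinib, and 336, 316 and 281 CPM in saline libraries. Each combined library lay below each gefitinib library, and each gefitinib library lay below each saline library. Klkb1 fell by 1.79-fold against saline (log2 fold change -0.84 ± 0.13 SE, adjusted p = 0.00213) and by 1.39-fold against gefitinib (log2 fold change -0.47 ± 0.13 SE, adjusted p = 0.0454). The gefitinib group was lower than saline without passing the test (log2 fold change -0.36 ± 0.13 SE, adjusted p = 0.23). Kng1 and Kng2 encode kininogens, the precursors of bradykinin. Kng1 stood at 1981, 1817 and 2189 CPM in combined, 2812, 2629 and 2533 CPM in gefitinib and 2463, 2238 and 2357 CPM in saline libraries. The level of Kng2 was 219.7, 204 and 225 CPM in combined, 289, 289 and 272 CPM in gefitinib and 276, 270.5 and 267 CPM in saline libraries. For both genes each combined library was below each library of the other groups. Kng1 fell against gefitinib (log2 fold change -0.41 ± 0.11 SE, adjusted p = 0.0461) and was not called against saline (log2 fold change -0.24 ± 0.11 SE, adjusted p = 0.173). Kng2 fell against gefitinib (log2 fold change -0.39 ± 0.09 SE, adjusted p = 0.0265) and against saline (log2 fold change -0.33 ± 0.09 SE, adjusted p = 0.0325). These are similar genes side by side on chromosome 16, so reads may be split between them. Of the 17 alternative settings tried, 3 called Klkb1, 1 called Kng1 and 6 called Kng2 against gefitinib. Against saline, 17 called Klkb1 and 5 called Kng2. F12, which encodes factor XII, had means of 447 ± 49.5 CPM in combined, 482 ± 33.9 CPM in gefitinib and 473 ± 73.5 CPM in saline libraries (SD, n = 3 each), with overlapping groups. F11, the gene of factor XI next to Klkb1, ranged over 54.5 to 83.5 CPM in combined, 74.0 to 100 CPM in gefitinib and 80.2 to 131 CPM in saline libraries. It was not called against saline (log2 fold change -0.67 ± 0.21 SE, adjusted p = 0.0574), and its groups overlapped. Without saline 3, F11 was called lower in combined against saline (log2 fold change -0.86, adjusted p = 0.0196).

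Of the 6 procoagulant genes, 2 were called lower in combined livers against gefitinib and 3 against saline. Of all tested genes, 4.11% and 8.32% were called lower. F7 encodes factor VII, the protease that works with tissue factor. For F7, combined libraries held 84.2, 83.0 and 87.4 CPM, gefitinib libraries 131, 122 and 128 CPM and saline libraries 122, 124 and 123 CPM. The 9 values form a low set of 3 combined libraries and a high set of 6, with a gap wider than either set. F7 fell by 1.49-fold against gefitinib (log2 fold change -0.58 ± 0.08 SE, adjusted p = 0.00312) and by 1.45-fold against saline (log2 fold change -0.53 ± 0.08 SE, adjusted p = 0.00226). Against gefitinib, F7 was called under all 17 alternative settings tried, and its promoter is among those shown above. F2 encodes prothrombin, the precursor of thrombin. F2 had 1342, 1349 and 1422 CPM in combined, 1868, 1686 and 1685 CPM in gefitinib, and 1806, 1876 and 1889.9 CPM in saline libraries. Combined libraries were the 3 lowest. F2 fell by 1.355-fold against saline (log2 fold change -0.44 ± 0.10 SE, adjusted p = 0.0139) and missed the threshold against gefitinib (log2 fold change -0.35 ± 0.10 SE, adjusted p = 0.0539). F13b encodes the B subunit of factor XIII, which carries the fibrin-crosslinking A subunit in plasma. F13b stood at 113, 111 and 109.8 CPM in combined, 150.1, 146 and 169.8 CPM in gefitinib and 173, 168 and 130.1 CPM in saline libraries. All 3 combined libraries were below the other 6. F13b fell against gefitinib (log2 fold change -0.48 ± 0.12 SE, adjusted p = 0.0389) and against saline (log2 fold change -0.49 ± 0.12 SE, adjusted p = 0.0212). Only 5 of the 17 alternative settings called F13b against gefitinib, and 8 called it against saline.

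Factors V, IX and X were not called in any comparison. F5 encodes factor V, the cofactor of factor Xa. The level of F5 was 288, 362 and 323 CPM in combined, 365, 367 and 403 CPM in gefitinib and 368, 432 and 377 CPM in saline libraries. Combined libraries were the 3 lowest by a small margin (log2 fold change -0.22 ± 0.12 SE, adjusted p = 0.289 against gefitinib). F9 encodes factor IX, which activates factor X together with factor VIII. For F9, combined libraries held 149, 166 and 167 CPM, gefitinib libraries 209, 188 and 202 CPM and saline libraries 194, 215 and 176 CPM. Again the combined libraries lay lowest (log2 fold change -0.31 ± 0.11 SE, adjusted p = 0.103 against gefitinib; log2 fold change -0.28 ± 0.11 SE, adjusted p = 0.104 against saline). F10 encodes factor X, the protease that makes thrombin. F10 had 397, 429 and 456 CPM in combined, 491, 505 and 514 CPM in gefitinib, and 513, 452 and 465 CPM in saline libraries. Combined libraries lay below gefitinib libraries but overlapped with saline libraries (log2 fold change -0.24 ± 0.10 SE, adjusted p = 0.183 against gefitinib). F7 and F10 are neighbours on the plus strand of chromosome 8, with F7 at chr8:13026034-13035809 and F10 at chr8:13037308-13056676 in GRCm38. F7 is the lower of this pair, with an FPKM ratio of F7 to F10 of 0.282 to 0.312 in combined, 0.356 to 0.390 in gefitinib and 0.349 to 0.404 in saline libraries. This ratio is free of the scaling between libraries, and its combined values lay below all 6 others.

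The 3 fibrinogen chain genes were not called, and 1 combined library set their spread. Fga, Fgb and Fgg encode the chains that assemble into fibrinogen, and all lie in a cluster on chromosome 3. Fgg stood at 3418, 3144 and 5245 CPM in combined, 4447, 4059 and 4973 CPM in gefitinib and 3966, 4269.9 and 3873 CPM in saline libraries. Combined 3 was the highest of the 9 libraries, while combined 1 and combined 2 were the 2 lowest. The level of Fga was 3812, 3858 and 5574 CPM in combined, 4938, 4040.0 and 5158 CPM in gefitinib and 4240.1, 5029 and 3682 CPM in saline libraries. For Fgb, combined libraries held 3823, 3795 and 5649 CPM, gefitinib libraries 4989.8, 4506 and 5707 CPM and saline libraries 4218, 4922 and 4261 CPM. Combined 3 was again far above the other combined libraries for both chains. Against gefitinib the log2 fold changes were -0.09 ± 0.18 for Fga, -0.20 ± 0.17 for Fgb and -0.19 ± 0.19 for Fgg (SE), with adjusted p of 0.816, 0.55 and 0.593. The FPKM ratio of Fgg to Fgb was 1.61 ± 0.0924 in combined, 1.62 ± 0.0275 in gefitinib and 1.65 ± 0.0667 in saline libraries (SD, n = 3 each). That of Fga to Fgb was 1.27 ± 0.0193 in combined, 1.18 ± 0.0657 in gefitinib and 1.22 ± 0.11 in saline libraries (SD, n = 3 each). The summed level of 10 platelet and megakaryocyte markers was also highest in combined 3, at 31.8 CPM, against 7.48 to 18.0 CPM in the other libraries, and its part in the fibrinogen values was not tested.

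Of the 4 anticoagulant genes, Proc fell against saline. Proc encodes protein C, which in its active form cuts factors Va and VIIIa. Proc had 439, 461 and 502 CPM in combined, 600.1, 621 and 595 CPM in gefitinib, and 679, 615 and 717 CPM in saline libraries. The combined libraries were the 3 lowest. Proc fell by 1.43-fold against saline (log2 fold change -0.52 ± 0.10 SE, adjusted p = 0.00798) and missed the threshold against gefitinib (log2 fold change -0.37 ± 0.10 SE, adjusted p = 0.0516). Serpinc1 encodes antithrombin, the main inhibitor of thrombin and factor Xa. Serpinc1 stood at 1519.5, 1815 and 1727 CPM in combined, 2295, 1947 and 2108 CPM in gefitinib and 2067, 2190.5 and 2138 CPM in saline libraries. Combined libraries were the lowest without passing the test (log2 fold change -0.33 ± 0.11 SE, adjusted p = 0.105 against gefitinib; log2 fold change -0.34 ± 0.11 SE, adjusted p = 0.0669 against saline). Serpind1 encodes heparin cofactor II, another thrombin inhibitor. The level of Serpind1 was 337, 394 and 393 CPM in combined, 464, 404 and 508 CPM in gefitinib and 466, 519 and 439 CPM in saline libraries. The order was the same, and neither comparison passed (log2 fold change -0.29 ± 0.12 SE, adjusted p = 0.183 against gefitinib; log2 fold change -0.34 ± 0.12 SE, adjusted p = 0.0873 against saline). Pros1 encodes protein S, the cofactor of activated protein C. For Pros1, combined libraries held 53.3, 46.5 and 59.1 CPM, gefitinib libraries 37.6, 66.7 and 61.8 CPM and saline libraries 43.5, 42.7 and 42.3 CPM. Each combined library was above each saline library, the opposite order to Proc, and the difference was not called (log2 fold change 0.31 ± 0.19 SE, adjusted p = 0.303). Gefitinib 1 was the lowest and gefitinib 2 the highest of the 9 libraries for Pros1.

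In fibrinolysis, Plg fell and Cpb2 rose. Plg encodes plasminogen, the precursor of plasmin. Plg had 1660.2, 1709.5 and 2111 CPM in combined, 2568, 2442 and 2642 CPM in gefitinib, and 2361, 2697 and 2306 CPM in saline libraries. All 3 combined libraries were below the other 6, with combined 3 the nearest. Plg fell by 1.40-fold against gefitinib (log2 fold change -0.48 ± 0.13 SE, adjusted p = 0.0424) and by 1.34-fold against saline (log2 fold change -0.43 ± 0.13 SE, adjusted p = 0.0429). These calls were kept in only 4 of the 17 alternative settings against gefitinib and in 3 against saline. Cpb2 encodes the carboxypeptidase precursor known as thrombin-activatable fibrinolysis inhibitor, which trims fibrin so that less plasminogen binds. Cpb2 stood at 398, 308 and 388 CPM in combined, 326, 307 and 355 CPM in gefitinib and 274, 252 and 219 CPM in saline libraries. The saline libraries were the 3 lowest, while combined and gefitinib libraries overlapped. Cpb2 rose by 1.47-fold against saline (log2 fold change 0.55 ± 0.13 SE, adjusted p = 0.0187) and was not called against gefitinib (log2 fold change 0.15 ± 0.13 SE, adjusted p = 0.556). The gefitinib group was higher than saline without passing the test (log2 fold change 0.41 ± 0.13 SE, adjusted p = 0.204). Serpinf2 encodes alpha-2-antiplasmin, the main plasmin inhibitor. The level of Serpinf2 was 794, 798 and 873 CPM in combined, 1035, 935 and 986 CPM in gefitinib and 844, 994 and 884 CPM in saline libraries. Combined libraries lay below gefitinib libraries and overlapped with saline libraries (log2 fold change -0.26 ± 0.11 SE, adjusted p = 0.164 against gefitinib). Vtn encodes vitronectin, which stabilises plasminogen activator inhibitor 1, and averaged 2758 ± 366 CPM in combined, 2947 ± 40.5 CPM in gefitinib and 3040 ± 102 CPM in saline libraries (SD, n = 3 each), with overlapping groups.

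**Figure D3:**
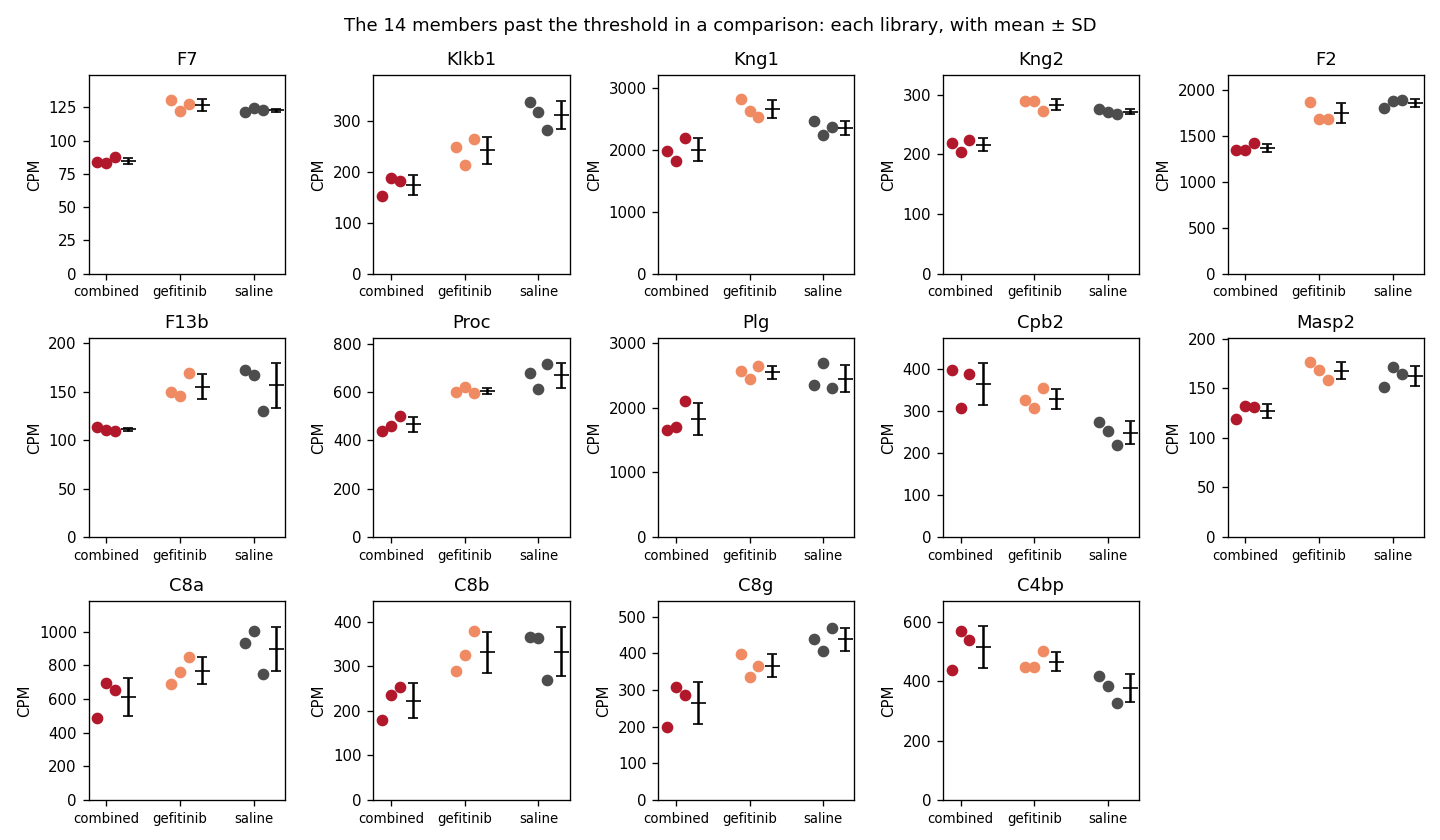
CPM (y axis, from 0) in each library of the 14 members called in at least 1 comparison, with groups ordered combined, gefitinib, saline; points are libraries and the bar beside them is the mean ± SD (n = 3). The combined libraries are the 3 lowest of 9 for F7, at 83.0 to 87.4 CPM, and Cpb2 and C4bp are the 2 genes higher in combined than in saline libraries.

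In the lectin pathway of complement, Masp2 fell and the lectins themselves were not called. Masp2 encodes the protease that cuts C4 and C2 after a lectin has bound. For Masp2, combined libraries held 119, 132 and 131 CPM, gefitinib libraries 176, 168 and 159 CPM and saline libraries 151, 172 and 165 CPM. The combined libraries were the 3 lowest. Masp2 fell by 1.32-fold against gefitinib (log2 fold change -0.40 ± 0.10 SE, adjusted p = 0.0321) and by 1.28-fold against saline (log2 fold change -0.35 ± 0.10 SE, adjusted p = 0.0316). Under the 17 alternative settings it was called in 8 against gefitinib and in 7 against saline. Masp2 overlaps Tardbp on the other strand, the labels do not state whether counting used strand, and Tardbp fell too against saline (log2 fold change -0.41 ± 0.11 SE, adjusted p = 0.0292). Masp1, whose protease activates that of Masp2, averaged 141 ± 10.9 CPM in combined, 145 ± 7.95 CPM in gefitinib and 147 ± 14.8 CPM in saline libraries (SD, n = 3 each), with overlapping groups. The FPKM ratio of Masp1 to Masp2 was 0.362 to 0.385 in combined, 0.272 to 0.320 in gefitinib and 0.266 to 0.339 in saline libraries, so the combined values lay above all others. Mbl1 and Mbl2 encode the mannose-binding lectins of mouse plasma. Mbl1 had 156, 192 and 227 CPM in combined, 228, 228 and 236 CPM in gefitinib, and 257, 227 and 207 CPM in saline libraries. Combined libraries lay below gefitinib libraries for Mbl1 and overlapped with saline (log2 fold change -0.27 ± 0.14 SE, adjusted p = 0.289 against gefitinib). Mbl2 stood at 628, 502 and 659.8 CPM in combined, 514, 505 and 589.5 CPM in gefitinib and 559, 383 and 335 CPM in saline libraries. For Mbl2 the groups overlapped, with saline 1 far above the other saline libraries (log2 fold change 0.49 ± 0.19 SE, adjusted p = 0.108 against saline). Without saline 1, Mbl2 was called higher in combined against saline (log2 fold change 0.73, adjusted p = 0.0162), as it was by DESeq2, by both limma fits on FPKM and by library size. The FPKM ratio of Mbl1 to Mbl2 was 0.172 to 0.265 in combined, 0.277 to 0.313 in gefitinib and 0.319 to 0.429 in saline libraries, 3 ranges that do not overlap.

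The 4 genes around the C3 convertases were not called. C3 encodes the central component of all complement pathways and averaged 6196 ± 469 CPM in combined, 6764 ± 330 CPM in gefitinib and 6665 ± 303 CPM in saline libraries (SD, n = 3 each), with overlapping groups. C4b encodes mouse C4, which is cut early in the classical and lectin pathways. The level of C4b was 1571, 1617 and 1853 CPM in combined, 1781, 1985 and 2072 CPM in gefitinib and 1290.2, 1455 and 1507 CPM in saline libraries. Combined and gefitinib libraries were each above every saline library. C4b was not called in gefitinib against saline (log2 fold change 0.46 ± 0.12 SE, adjusted p = 0.11) or in combined against saline (log2 fold change 0.25 ± 0.12 SE, adjusted p = 0.185). In combined against saline it was called higher by limma on log2(FPKM + 1), at 0.47 (adjusted p = 0.0109), and on log2(FPKM + 0.1), at 0.47 (adjusted p = 0.0353), and in edgeR by library size, at 0.45 (adjusted p = 0.0168). Its near copy C4a averaged 112 ± 64.7 CPM in combined, 209 ± 103 CPM in gefitinib and 139 ± 72.0 CPM in saline libraries (SD, n = 3 each), so reads may be split between them. C2 encodes the protease part of the classical and lectin convertase. For C2, combined libraries held 93.7, 113 and 122 CPM, gefitinib libraries 148, 143 and 133 CPM and saline libraries 125, 124 and 78.1 CPM. Gefitinib libraries were the 3 highest of 9, and no comparison was called (log2 fold change -0.37 ± 0.18 SE, adjusted p = 0.24 for combined against gefitinib). Cfb encodes factor B, the protease part of the alternative convertase. Cfb had 1134, 1184 and 1225 CPM in combined, 1281, 1329 and 1447 CPM in gefitinib, and 1185, 1261 and 1195 CPM in saline libraries. Gefitinib libraries were again the 3 highest (log2 fold change -0.20 ± 0.10 SE, adjusted p = 0.264 for combined against gefitinib). Both C2 and Cfb overlap Gm20547 on the same strand. Gm20547 averaged 9.67 ± 16.8 CPM in gefitinib (SD, n = 3) and 0 CPM in combined and saline libraries. It did not pass the filter on low counts, and its part in the C2 and Cfb values was not tested.

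All 3 genes of the C8 complex were called lower in combined against saline livers, beside 8.32% of all tested genes. Complement C8 is built from an alpha, a beta and a gamma chain, encoded by C8a, C8b and C8g, and joins the pore after C7. C8a stood at 485, 697 and 654 CPM in combined, 691, 762 and 851 CPM in gefitinib and 933, 1004 and 751 CPM in saline libraries. The level of C8b was 179, 235 and 254 CPM in combined, 288, 325 and 379 CPM in gefitinib and 365, 363 and 269 CPM in saline libraries. For C8g, combined libraries held 199, 309 and 287 CPM, gefitinib libraries 399.8, 335 and 366 CPM and saline libraries 438, 406 and 471 CPM. For each chain, every combined library was below every saline library. The fall was 1.46-fold for C8a (log2 fold change -0.55 ± 0.17 SE, adjusted p = 0.0459), 1.49-fold for C8b (log2 fold change -0.58 ± 0.17 SE, adjusted p = 0.045) and 1.655-fold for C8g (log2 fold change -0.73 ± 0.16 SE, adjusted p = 0.0136). None of the chains was called against gefitinib, where adjusted p was 0.261 for C8a, 0.0703 for C8b and 0.103 for C8g. Over the 17 alternative settings, the fall against saline was called in only 4 for C8a and 3 for C8b, but in 16 for C8g. Combined 1 was the lowest library for all 3 chains. C8a and C8b are neighbours on chromosome 4, and C8g lies on chromosome 2, where it overlaps Fbxw5 on the other strand. Fbxw5 averaged 32.3 ± 1.81 CPM in combined and 32.8 ± 2.67 CPM in saline libraries (SD, n = 3 each), far below C8g.

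The other 3 terminal genes were not called in any comparison. Hc, the mouse gene of C5, averaged 692 ± 69.1 CPM in combined, 893 ± 227 CPM in gefitinib and 713 ± 139.7 CPM in saline libraries (SD, n = 3 each). C9, whose product polymerises into the pore, averaged 419 ± 103 CPM in combined, 465 ± 111 CPM in gefitinib and 488 ± 5.51 CPM in saline libraries (SD, n = 3 each). Groups overlapped for both genes in each comparison, and their changes in combined against saline were not called (log2 fold change -0.04 ± 0.20 SE, adjusted p = 0.921 for Hc; log2 fold change -0.22 ± 0.20 SE, adjusted p = 0.503 for C9). C6 encodes the component that joins the pore after C5b. C6 had 70.3, 103 and 133 CPM in combined, 75.0, 83.6 and 76.8 CPM in gefitinib, and 164, 119 and 119 CPM in saline libraries. Gefitinib libraries lay below every saline library, and combined libraries spread across both ranges (log2 fold change -0.39 ± 0.21 SE, adjusted p = 0.242 for combined against saline). C6 had the lowest log2 fold change of the members in gefitinib against saline and was not called (log2 fold change -0.77 ± 0.21 SE, adjusted p = 0.131).

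Of the complement regulators, C4bp rose against saline. C4bp encodes C4b-binding protein, which speeds the decay of the classical convertase. C4bp stood at 437, 569 and 538 CPM in combined, 447, 447 and 501 CPM in gefitinib and 418, 385 and 325 CPM in saline libraries. All 3 saline libraries were below the other 6. C4bp rose by 1.37-fold against saline (log2 fold change 0.45 ± 0.14 SE, adjusted p = 0.046) and was not called against gefitinib (log2 fold change 0.15 ± 0.14 SE, adjusted p = 0.573). The rise against saline was called in 7 of the 17 alternative settings. Cfi encodes factor I, the protease that inactivates C3b and C4b with the help of cofactors. The level of Cfi was 563, 498 and 569.6 CPM in combined, 602, 604 and 672 CPM in gefitinib and 595, 526 and 476 CPM in saline libraries. Gefitinib libraries were the 3 highest, and no comparison was called (log2 fold change -0.20 ± 0.12 SE, adjusted p = 0.329 for combined against gefitinib).

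Set against gefitinib, 6 of 22 coagulation members (27.3%) and 1 of 16 complement members (6.25%) were called in combined livers, all lower. Of all tested genes, 9.08% were called in this comparison (4.11% lower, 4.96% higher). The complement share rests on 1 gene and lay between the 4.11% called lower and the 9.08% called in either direction. The median log2 fold change was -0.29 for coagulation and -0.21 for complement, beside 0.01 for all tested genes. Between libraries of a group, the SD of the median log2 CPM was 0.0963 for coagulation and 0.162 for complement. This SD is a spread of levels and not of the change, so it cannot rank the 2 shifts. With 1 library left out, the median change was -0.359 to -0.229 for coagulation and -0.271 to -0.157 for complement. Groups did not overlap for 21 members, all lower in combined, beside 31.2% of all tested genes (15.0% lower, 16.2% higher). Leaving out 1 library at a time gave 4 called members without any 1 saline library, 2 without gefitinib 2 or combined 3, and 1 without gefitinib 1, gefitinib 3, combined 1 or combined 2. Over all genes, these fits called from 751 of 18859 (without gefitinib 1) to 1497 of 18858 (without saline 3). The fit of all 9 libraries called 1644 of 18113. Of these 9 fits with 1 library left out, F7 was called in 9, Kng2 and Masp2 in 3, F13b and Plg in 2. Klkb1 was called in 1 and Kng1 in 0. DESeq2 in place of edgeR called 13 members, all lower, beside 2752 of all 18113 tested genes (1324 lower, 1428 higher).

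Set against saline, 8 of 22 coagulation members (36.4%) and 5 of 16 complement members (31.2%) were called, with 7 lower and 1 higher for coagulation and 4 lower and 1 higher for complement. Of all tested genes, 17.7% were called there (8.32% lower, 9.37% higher). The median log2 fold change was -0.28 for coagulation and -0.09 for complement, beside -0.01 for all tested genes. Groups did not overlap for 16 members lower and 4 higher in combined, beside 37.3% of all tested genes (18.0% lower, 19.3% higher). Called members numbered 9 without saline 1, saline 3, gefitinib 1 or gefitinib 3, 8 without gefitinib 2, 7 without combined 2, 6 without combined 1 or combined 3, and 5 without saline 2. Over all genes, these fits called from 2065 of 18792 (without combined 1) to 2967 of 18879 (without gefitinib 2). The fit of all 9 libraries called 3205 of 18113. Klkb1, F2, F7, Proc and C8g were called in all 9 of the fits with 1 library left out. Cpb2 was called in 5, F13b and Masp2 in 4, Kng2, C8a and C4bp in 2, and Plg and C8b in 1. The complement median was -0.17 without saline 3, -0.13 without saline 2 and -0.04 without combined 1.

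Gefitinib against saline had no called member in edgeR's test, with 5 members at an unadjusted p under 0.05, beside 14.1% of all tested genes. Without gefitinib 1 the count of called members was also 0, beside 75 of 18859 genes tested in that fit. DESeq2 called 2 members in this comparison, C4b higher and C6 lower, beside 866 of all 18113 tested genes. The median log2 fold change was 0.04 for coagulation and 0.03 for complement, beside -9e-04 for all tested genes. Groups did not overlap for 7 members higher (Kng1, Cpb2, C2, C4b, Cfb, Cfi and C4bp) and 3 lower (Klkb1, C6 and C8g) in gefitinib, beside 19.9% of all tested genes (9.70% higher, 10.2% lower). Of these 10, 7 were complement genes. Whether the cascades differ from each other was not tested in any comparison.

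Calls depended on how libraries were scaled. TMM and median-ratio factors hold the median of all genes near 0, whereas scaling by library size alone, added after seeing the data, moved that median to 0.17 in combined against gefitinib and 0.20 in combined against saline. On that scale the called members numbered 1 in combined against gefitinib, lower, and 7 in combined against saline, 4 higher and 3 lower. All genes called then split into 1513 higher and 380 lower against gefitinib, in place of 899 higher and 745 lower, and into 2980 higher and 805 lower against saline, in place of 1698 higher and 1507 lower. Distances from the all-gene median were nearly the same by library size and by TMM. In combined against gefitinib, coagulation lay at -0.301 and complement at -0.214 by library size, beside -0.297 and -0.212 by TMM. In combined against saline these distances were -0.266 and -0.077 by library size, beside -0.267 and -0.076 by TMM. On log2(FPKM + 1) they were -0.191 for coagulation and -0.104 for complement in combined against gefitinib, and -0.139 and 0.044 in combined against saline, where the complement distance changed sign. The complement median itself was 0.122 by library size and -0.09 by TMM in combined against saline, so its direction depends on the scale.

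**Figure D4:**
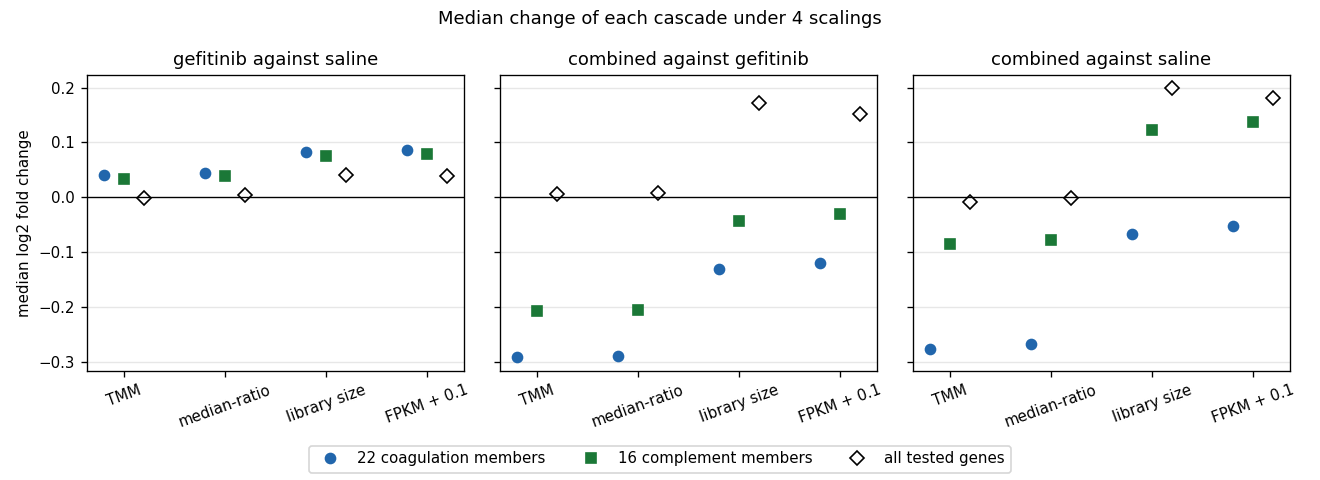
Median log2 fold change (y axis) of the 22 coagulation members, the 16 complement members and all tested genes in 3 comparisons under 4 scalings (x axis). In both comparisons of the combined group, coagulation and complement lie below all tested genes under the 4 scalings drawn, while the complement median in combined against saline is above 0 by library size and by log2(FPKM + 0.1), and lay 0.044 above all tested genes on log2(FPKM + 1), which is not drawn.

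Ratios of 2 genes within a library do not depend on that scaling. Besides F7 to F10, Masp1 to Masp2 and Mbl1 to Mbl2, the FPKM ratio of C8a to C8b was 1.80 to 2.08 in combined, 1.57 to 1.68 in gefitinib and 1.79 to 1.95 in saline libraries, lowest in the 3 gefitinib libraries. The ratio of Kng2 to Kng1 was 0.129 ± 0.00617 in combined, 0.127 ± 0.00418 in gefitinib and 0.137 ± 0.0056 in saline libraries (SD, n = 3 each). The ratio of F11 to Klkb1, neighbours on chromosome 8, overlapped between groups, at 0.837 to 1.08 in combined, 0.810 to 0.889 in gefitinib and 0.668 to 0.969 in saline libraries. Summed over members, complement FPKM made up 0.4125 ± 0.0439 of coagulation FPKM in combined, 0.393 ± 0.0162 in gefitinib and 0.392 ± 0.0164 in saline libraries (SD, n = 3 each), with overlapping ranges. In all, 12 gene pairs and this ratio of sums were examined, and no test was made of them.

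**Figure D5:**
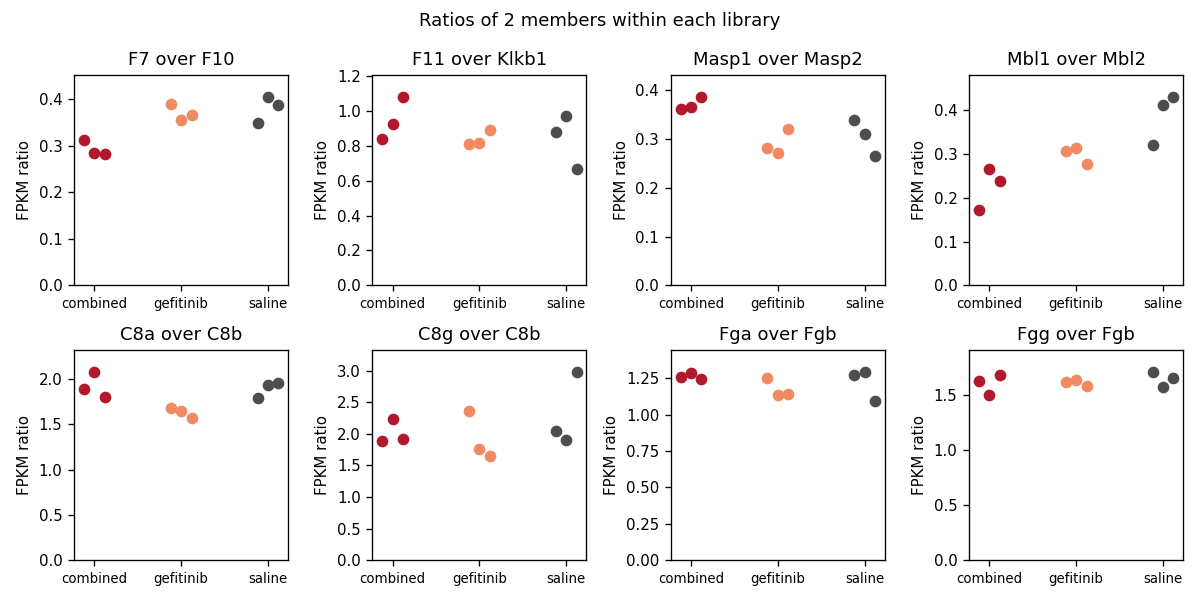
FPKM ratio of 2 members within each library (y axis, from 0) for 8 gene pairs, with groups ordered combined, gefitinib, saline and 1 point per library. Combined libraries lie below the others for F7 over F10 and for Mbl1 over Mbl2, above them for Masp1 over Masp2, and among them for Fga over Fgb and Fgg over Fgb.

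Other genes of coagulation and fibrinolysis, 37 of 40 of which passed the limit for low counts, were called in both directions. Against gefitinib, 6 rose and 8 fell in combined libraries (37.8% of those tested), and against saline 8 rose and 9 fell (45.9%). Of all tested genes, 9.08% and 17.7% were called in these comparisons. Those with the smallest adjusted p are named here, and the first 3 act in plasmin formation on cell surfaces. Anxa2, a plasminogen receptor subunit, had 99.8, 75.7 and 52.2 CPM in combined, 11.2, 16.7 and 9.60 CPM in gefitinib, and 11.4, 7.92 and 7.68 CPM in saline libraries. Combined libraries were above all others for Anxa2 (log2 fold change 2.60 ± 0.28 SE, adjusted p = 0.000963 against gefitinib; log2 fold change 3.08 ± 0.29 SE, adjusted p = 0.000203 against saline). Plau, the gene of urokinase, rose against gefitinib (log2 fold change 2.16 ± 0.32 SE, adjusted p = 0.00389) and saline (log2 fold change 2.88 ± 0.33 SE, adjusted p = 0.000556), and so did its receptor gene Plaur (log2 fold change 3.43 ± 0.55 SE, adjusted p = 0.00563 against gefitinib; log2 fold change 4.18 ± 0.58 SE, adjusted p = 0.00131 against saline). Procr, the gene of the protein C receptor, rose against gefitinib (log2 fold change 1.67 ± 0.30 SE, adjusted p = 0.0102). Gas6, a vitamin K-dependent ligand of receptor kinases, rose against saline (log2 fold change 1.07 ± 0.15 SE, adjusted p = 0.00142). The genes that fell were led by F3, the gene of tissue factor (log2 fold change -1.44 ± 0.27 SE, adjusted p = 0.0121 against gefitinib), and Hgfac, the gene of hepatocyte growth factor activator (log2 fold change -0.71 ± 0.13 SE, adjusted p = 0.0121 against gefitinib). Serpina1a, an alpha-1-antitrypsin gene with near-identical copies, fell against saline (log2 fold change -0.82 ± 0.12 SE, adjusted p = 0.00183). F8, the gene of factor VIII, which liver endothelial cells make, fell in gefitinib (log2 fold change -1.34 ± 0.21 SE, adjusted p = 0.0238) and in combined libraries (log2 fold change -1.79 ± 0.22 SE, adjusted p = 0.000692) against saline. F8 is itself 1 of the 16 sinusoidal endothelial markers. Of these, 13 fell in gefitinib and 16 fell in combined against saline, beside 1.14% and 17.7% of all tested genes called.

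Among other complement genes, 35 of 38 of which were tested, 3 rose and 3 fell in combined libraries against gefitinib, and 4 rose and 8 fell against saline. That is 17.1% and 34.3% of those tested, beside 9.08% and 17.7% of all tested genes. C3ar1, the gene of the C3a receptor, rose (log2 fold change 2.14 ± 0.30 SE, adjusted p = 0.00316 against gefitinib; log2 fold change 2.65 ± 0.31 SE, adjusted p = 0.000623 against saline). Itgam and Itgb2 encode complement receptor 3 of myeloid cells. Itgb2 had 32.8, 36.2 and 34.1 CPM in combined, 6.90, 10.5 and 6.61 CPM in gefitinib, and 4.63, 2.60 and 7.87 CPM in saline libraries, with the combined libraries above all others. It rose against gefitinib (log2 fold change 2.10 ± 0.34 SE, adjusted p = 0.00583) and saline (log2 fold change 2.77 ± 0.35 SE, adjusted p = 0.000847), as did Itgam (log2 fold change 1.52 ± 0.41 SE, adjusted p = 0.0473 against gefitinib; log2 fold change 2.75 ± 0.43 SE, adjusted p = 0.00255 against saline). The macrophage marker sum given above was higher in the same combined libraries, and its part in these receptor values was not tested. Cpn2, a subunit of the carboxypeptidase that inactivates C3a and C5a, fell against gefitinib (log2 fold change -0.42 ± 0.10 SE, adjusted p = 0.0338). C1s2 (log2 fold change -0.82 ± 0.20 SE, adjusted p = 0.0352) and C1rl (log2 fold change -0.61 ± 0.16 SE, adjusted p = 0.0412), related to the proteases of C1, also fell against gefitinib. Against saline the genes with the smallest adjusted p that fell were Colec10, a collectin gene (log2 fold change -1.65 ± 0.27 SE, adjusted p = 0.00319), Cfhr2, a factor H-related gene (log2 fold change -0.91 ± 0.16 SE, adjusted p = 0.00429), and Cd55, the gene of decay-accelerating factor (log2 fold change -1.71 ± 0.31 SE, adjusted p = 0.00542).

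Transcripts of the factors whose motifs were searched in the promoters, and of related regulators, were also measured. Cebpa fell in combined against gefitinib (log2 fold change -1.34 ± 0.15 SE, adjusted p = 0.00107) and against saline (log2 fold change -1.09 ± 0.15 SE, adjusted p = 0.00126), while Cebpb rose against both (log2 fold change 1.22 ± 0.25 SE, adjusted p = 0.0157 against gefitinib; log2 fold change 1.11 ± 0.25 SE, adjusted p = 0.0135 against saline). Hnf4a was not called against gefitinib (log2 fold change 0.38 ± 0.11 SE, adjusted p = 0.0524) or saline (log2 fold change 0.04 ± 0.11 SE, adjusted p = 0.865). Of 18 regulators of liver secretory genes, 7 were called lower and 1, Cebpb, higher in combined against gefitinib. In combined against saline, 7 were called lower and 2, Cebpb and Stat3, higher. These calls were 44.4% and 50.0% of the list, beside 9.08% and 17.7% of all tested genes.

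The members also stood among other liver secretory genes. Of 25 other hepatocyte secreted proteins, 0 rose and 3 fell in combined against gefitinib, with a median log2 fold change of -0.26. Of all tested genes, 9.08% were called in that comparison (4.11% lower, 4.96% higher). Against saline, 2 of these 25 rose and 9 fell, with a median of -0.23. Of all tested genes, 17.7% were called there (8.32% lower, 9.37% higher). Of 21 acute phase genes, 1 rose and 0 fell in combined against gefitinib (4.76% called, beside 9.08% of all tested genes), with a median of 0.12. In combined against saline, 10 rose and 2 fell (57.1% called, beside 17.7% of all tested genes), with a median of 0.66. In gefitinib against saline, 6 of these 21 acute phase genes rose and 0 fell (28.6% called, beside 1.14% of all tested genes), with a median of 0.61. The medians of coagulation and complement members in combined against saline were below that of the acute phase list, and the difference was not tested.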

How the data were processed

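Liver RNA of 3 groups was sequenced, with 3 libraries each. A column kit gave the RNA and a SMARTer mRNA kit the libraries, per the labels' protocols. The authors deposited raw counts per gene and FPKM values in 1 table; aligner, counter and strand setting: not given in the sources used here. The submitters' processing notes name the build as GRCm38 and as mm10. Members were found by gene symbol, and both members and comparison lists were chosen with earlier results of these data known.

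Low counts were removed with edgeR's filterByExpr at its defaults, which left 18113 genes and took out 9832. Counts were fitted in edgeR 4.0.16 (R 4.3.3) with TMM factors, 1 mean per group over all 9 libraries (6 residual degrees of freedom) and the quasi-likelihood test, with Benjamini-Hochberg adjustment over all tested genes and a threshold of 0.05. The SE is the log2 fold change divided by the square root of the test's F. Deposited FPKM values were used for levels between genes and for ratios. At 56440871 to 60665156 counts per library, the spread between libraries rather than counting limits the precision. Alternatives were median-ratio scaling, no filter, DESeq2 1.42.0, limma 3.58.1 on log2(FPKM + 1) and log2(FPKM + 0.1), a fit of the 6 libraries compared, the replicate number as a block, each library left out and, added after seeing the data, scaling by library size. The scripts were tested on simulated data. Members called or with groups that do not overlap were named with values in each library. In the lists of other coagulation and other complement genes, up to 6 called genes with the smallest adjusted p were named per comparison. Regulators were named with values only for Cebpa, Cebpb and Hnf4a, of the C/EBP and HNF4 motifs. Stat3 was named without values, and other called regulators are not named. Secreted and acute phase genes were only counted. A withheld item is not reported here.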

Additional observations from a re-analysis of the deposited data

How the results depend on the processing

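Across the 17 alternatives, none of the 20 called values of single members changed direction: of 340 recomputed values 173 passed the threshold and 167 did not. Of 1598 recomputed values of the uncalled ones, 20 passed and 120 had the other sign. In gefitinib against saline, DESeq2 called 2 members, beside 866 of 18113 genes, and every other alternative called 0 members. In combined against gefitinib, where 7 were called, the count was 3 with no filter, 13 by DESeq2, 2 by limma on log2(FPKM + 1), 1 by limma on log2(FPKM + 0.1), 3 with only the 6 libraries compared, 1 by library size, and 1 to 4 with a library left out. In combined against saline, where 13 were called, it was 5 by limma on log2(FPKM + 0.1) (1 lower, Klkb1, and 4 higher, Cpb2, C4bp, Mbl2 and C4b, in place of 11 lower and 2 higher), 7 with only the 6 libraries compared, 7 by library size, and 5 to 9 with a library left out. The replicate block left 1 call in combined against gefitinib and 6 in combined against saline, beside 1028 and 2496 of 18113 genes. Calls over all genes moved too. Against gefitinib they numbered 1644 in the main fit, 1092 of 27945 with no filter and 1459 of 17394 with only the 6 libraries. By limma they numbered 2367 (427 lower) on log2(FPKM + 1) and 1625 (294 lower) on log2(FPKM + 0.1). Against saline they were 3205 in the main fit, 3751 (784 lower) on log2(FPKM + 0.1) and 2794 of 17328 with only the 6 libraries. For libraries with the same number, correlations of their deviations from the group means were -0.076 to 0.072, so no strong shared pattern was seen. The labels state no pairing, and these correlations cannot exclude one.

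Medians of the cascades moved with the scaling. In combined against gefitinib, coagulation was at -0.118 and complement at -0.031 by log2(FPKM + 1), at -0.12 and -0.031 by log2(FPKM + 0.1), and at -0.13 and -0.043 by library size. In combined against saline these were -0.051 and 0.132, -0.052 and 0.138, and -0.067 and 0.122. Relative to all genes, complement was at 0.044 by log2(FPKM + 1) in combined against saline, above the all-gene median. With a library left out, medians in combined against gefitinib were -0.359 to -0.229 for coagulation and -0.271 to -0.157 for complement; in combined against saline -0.319 to -0.229 and -0.166 to -0.038; in gefitinib against saline 0.002 to 0.07 and 0.031 to 0.076. The causes were not tested beyond the scaling shift given above.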
